A study of Mus musculus with 33 samples.

Results

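The Ifi200 family is a cluster of mouse genes for proteins that bind DNA through a HIN domain, and 7 of its genes, Ifi203, Ifi204, Ifi205, Ifi207, Ifi209, Ifi211 and Mndal, were followed here in the fibroblasts of the mouse colon. They were found by their symbols, each with 1 row among the 31053 genes of the single-cell matrices, and they had been chosen with their levels in these cells known. Each of the 3 libraries came from cells of adult colon mesenchyme, of untreated mice of both sexes, with the outer muscle removed. The GFP-low libraries, replicates 1 and 2, had the genotype PdgfraH2BeGFP, in which the Pdgfra locus drives a nuclear GFP, and their cells were sorted without antibody for a low GFP level. The whole-mesenchyme library had the genotype control and was sorted as negative for EpCAM and CD45, which removes epithelium and most blood cells. The genotype and the sort therefore changed together between the 2 kinds of library and cannot be told apart, and nothing in the labels says that the GFP-low replicates came from separate mice.

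Ifi200 proteins sense DNA in the cytosol or nucleus, and many of them also carry a pyrin domain that joins them to other proteins. Aim2 starts the inflammasome on cytosolic DNA, and Ifi204, a mouse relative of human IFI16, acts with the adaptor STING upstream of type I interferon. The family is named for its induction by interferon, which acts through response elements in gene promoters. Ifit1, which binds viral RNA, and Isg15, a ubiquitin-like modifier, are standard interferon-stimulated genes and served as the yardstick.

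The genes lie side by side on chromosome 1, and several have near-copies of each other's promoters. RefSeq promoters of GRCm38.p6, from 250 bases before to 50 bases after each start, were matched for 6 of the 7 members, all but Ifi204. The stretches below are shown because they hold the interferon-stimulated response element of the family or its counterpart. They are 30 bases long, read 5′ to 3′ on the gene's strand, with the 10 letters of the element, GAAANNGAAA, in capitals; in Ifi209 the capitals mark the letters at the matching place.
Ifi203: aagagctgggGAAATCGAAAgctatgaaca
Mndal, promoter 2: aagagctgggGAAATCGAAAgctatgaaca
Ifi205: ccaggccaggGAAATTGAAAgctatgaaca
Ifi211: caaagccaggGAAATTGAAAgctatgaacg
Ifi207: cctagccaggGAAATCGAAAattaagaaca
Ifi214: agtctctgagGAAATCGAAAgcgatgcact
Ifi209: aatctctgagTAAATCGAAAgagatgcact

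The Ifi203 stretch is chr1:173942508-173942537 on the minus strand, and its element starts 35 bases before the first of the 2 listed starts; the second promoter of Ifi203 held none. The Mndal stretch, chr1:173880204-173880233 on the minus strand, has the same 30 letters, with the element 36 bases before the start of its second promoter. In Ifi207, at chr1:173741831-173741860 on the minus strand, the element is 41 bases before the start. The elements shown for Ifi205 (chr1:174031870-174031899, minus strand, 134 bases before the start) and Ifi211 (chr1:173913064-173913093, minus strand, 37 bases before) differ from that of Ifi203 by C6T, counted from 1 at the first capital. Not shown is a further Ifi205 element on the other strand, 23 bases after the start, with T5G and C6T. Mndal promoter 1 also held an element on the other strand, 54 bases before that promoter's start, with T5G and C6A. The Ifi214 stretch is chr1:173536017-173536046 on the minus strand. The Ifi209 stretch, chr1:173630770-173630799 on the plus strand with its capitals starting 79 bases before the start, shares 27 of 30 letters with that of Ifi214. It carries the substitution G1T, so that the searched letters are not there.

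With both strands searched, GAAANNGAAA occurred in the promoters of 5 of the 6 members that had one. It occurred for 3.99% of the 27025 genes of the table, and in 3.44% of its 32851 promoters. It was also present for 4 of the 6 other family genes, namely Ifi206, Ifi208, Ifi213 and Ifi214, and was not found in the windows of Aim2 or Ifi202b. Ifit1, on chromosome 19, held it at 2 places, and Isg15, on chromosome 4, at 3 overlapping ones. Over the whole window the promoters of Ifi209 and Ifi214 were identical at 95.3% of aligned positions, those of Ifi203 and Mndal (promoter 2) at 90.7%, and those of Ifi207 and Ifi211 at 85.9%. The transcripts that were counted were not compared in sequence, so this likeness of promoters does not show whether members share reads. If transcripts are near-identical too, their reads could be lost or put to the wrong member. How such reads were counted is not given in the sources used here.

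**Figure D1:**
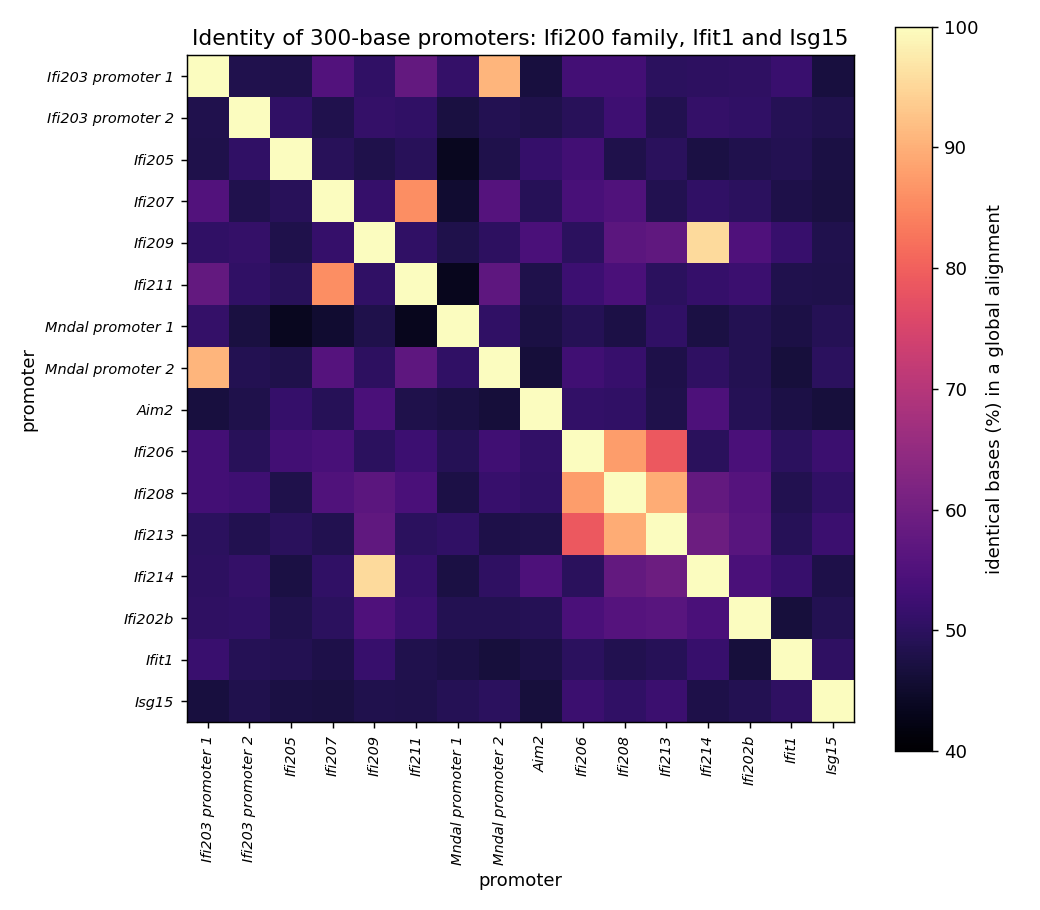
Percent identity between aligned promoters of the family, Ifit1 and Isg15, for each pair of 300-base windows. The pairs Ifi209 with Ifi214 (95.3%), Ifi203 promoter 1 with Mndal promoter 2 (90.7%), Ifi208 with Ifi213 (89.5%), Ifi206 with Ifi208 (87.8%) and Ifi207 with Ifi211 (85.9%) stand out from the rest.

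The libraries held 39190629, 52313765 and 41863444 UMIs, in the order GFP-low replicate 1, GFP-low replicate 2 and whole mesenchyme, which is kept below wherever 3 values are given. Barcodes with 1000 UMIs and 500 genes or more were kept as cells unless over 20% of their UMIs were mitochondrial, which left 4834, 6025 and 6793 cells, with medians of 6446.5, 7025 and 4429 UMIs. GFP-low replicate 1 stood apart in its free RNA: 36511 barcodes had 10 to 100 UMIs there, against 9865 and 10262 in the other libraries. Pairs of libraries shared 6 to 11 cell barcodes. The GFP reporter itself was not analysed here, so the sort was not checked through it.

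The cells were clustered on a random part of the genes (15338 of 31053), without the family or the listed interferon and sensing genes, and clusters were named from fixed markers. Fibroblasts formed a Cd81-high class of 2958, 4110 and 451 cells and a Cd81-low class, marked by Adamdec1, of 1202, 1380 and 3379 cells. Cd81 itself, a surface tetraspanin, stood at 575, 411 and 489 CPM (counts scaled to 1000000 UMIs) in the Cd81-high class, against 32.4, 32.2 and 20.8 CPM in the Cd81-low class. Summed over their marker lists the class names held, but single clusters were less clear. Cluster 14, Cd81-high, had 3 of the 10 markers of its class raised over the other clusters. In clusters 12 and 13, Cd81-low, 0 markers of the class were among the leading genes. With finer clustering (resolution 2), 783 cells led by Ifi207 and Ifit1, 777 of them from GFP-low replicate 2, stayed unnamed. Clusters 2 and 4 held most Cd81-high cells of GFP-low replicate 1, clusters 7, 8 and 14 most of GFP-low replicate 2, and clusters 4 and 14 most of whole mesenchyme. Whole mesenchyme held nearly all cells of the other stromal types: 1570 telocyte-like cells high in Pdgfra, 802 of blood endothelium, 160 smooth muscle cells or myofibroblasts, 84 pericytes and 59 of lymphatic endothelium. A shallow cluster of 528, 446 and 165 cells (10.9%, 7.40% and 2.43% of the libraries) stayed unnamed and outside both fibroblast classes; its summed family level was 1006, 1574 and 1050.2 CPM.

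All members but Ifi209 were higher in Cd81-high than in Cd81-low fibroblasts in each of the 3 libraries. Levels are CPM of summed UMIs from 3′ counting, which are not scaled by gene length and so are not compared between genes. Ifi207 differed most among the members: it stood at 58.9, 139 and 59.2 CPM in Cd81-high cells, against 3.06, 6.86 and 2.18 CPM in Cd81-low cells. The lowest Cd81-high value thus lay far above the highest Cd81-low one.

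The DNA sensor Ifi204 was at 140.5, 157 and 127 CPM in Cd81-high fibroblasts and at 23.1, 18.9 and 24.0 CPM in Cd81-low fibroblasts. Ifi205 was at 189.5, 341 and 204 CPM in Cd81-high cells, against 37.2, 63.0 and 98.7 CPM in Cd81-low cells. Ifi211 was at 108, 155 and 131 CPM in Cd81-high cells, against 47.0, 65.7 and 70.6 CPM in Cd81-low cells. For these 3 genes, too, the classes did not overlap. How many of all tested genes separate in this way was not counted, for these or the other members.

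Ifi203 and Mndal, the pair with the shared promoter stretch, differed least between the classes. Ifi203 was at 193, 207 and 193 CPM in Cd81-high cells and at 78.0, 89.7 and 159 CPM in Cd81-low cells. Mndal was at 110.4, 112 and 103 CPM in Cd81-high cells and at 59.4, 61.8 and 94.0 CPM in Cd81-low cells. The classes did not overlap here either, but in both genes the whole-mesenchyme Cd81-low cells came close to the Cd81-high ones, while the GFP-low libraries kept a wide gap.

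Ifi209 was all but undetected in fibroblasts, with 0, 1 and 0 UMIs in the Cd81-high cells and 1 UMI in the Cd81-low cells of each library. It was higher in a small cluster led by both B-cell genes (Mzb1, Cd79a, Cd79b) and myeloid genes (Lyz2, Il1b, Ctss, Tyrobp, Cybb), which is given no cell type here. Its 21 and 23 cells in GFP-low replicates 1 and 2 had 55.2 and 32.3 CPM. T or innate lymphoid cells, 81 and 35 in number, had 17.1 and 4.35 CPM.

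The classes were then compared with edgeR's quasi-likelihood test on UMI sums, with the library as block, over the 6443 genes that were not offered to the clustering and passed the filter on low counts. Of these, 13.4% were called higher in Cd81-high cells and 14.7% lower at a Benjamini-Hochberg adjusted p under 0.05, so 28.1% were called in all. The 6 members that passed the filter were all called higher; because they were chosen with these levels known, the fit serves for them as a description only. The log2 differences were 4.54 (SE 0.12) for Ifi207, 2.76 (SE 0.15) for Ifi204, 2.03 (SE 0.27) for Ifi205, 1.20 (SE 0.12) for Ifi211, 1.02 (SE 0.21) for Ifi203 and 0.73 (SE 0.17) for Mndal. For Mndal the call was lost when either GFP-low library was left out, with a difference of 0.59 in both cases. When fibroblasts were instead divided by a single Cd81 UMI per thinned cell, all 6 calls were lost: Ifi207 stood at 0.54, Ifi204 at 0.47, Ifi205 at 0.39, Ifi211 at 0.21, Ifi203 at −0.013 and Mndal at −0.015. That rule placed 1238, 1424 and 219 cells on the high side, fewer than the 2958, 4110 and 451 of the Cd81-high class. Many cells of that class thus lay on the low side, and their part in the lost calls was not tested.

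Markers of other cell types were also summed, and their part in the difference was not tested. The 6 markers of smooth muscle summed to 42.4, 23.8 and 77.7 CPM in Cd81-high cells, against 237, 180.5 and 245 CPM in Cd81-low cells. The 6 pericyte markers summed to 14.4, 12.6 and 12.8 CPM in Cd81-high cells, against 132, 71.2 and 50.1 CPM in Cd81-low cells. Both lists were thus higher in Cd81-low cells in each library. The 8 telocyte markers summed to 253, 265 and 442 CPM in Cd81-high cells, against 216, 258 and 485 CPM in Cd81-low cells, and no clear direction was seen. The 7 T-cell markers summed to at most 1.85 CPM in any fibroblast sum, and none of them had a UMI in the Cd81-high cells of whole mesenchyme. The 6 macrophage markers summed to 5.33 to 10.7 CPM in Cd81-high cells and 14.9 to 24.2 CPM in Cd81-low cells. The 6 epithelial markers summed to 2.09 to 3.56 CPM in Cd81-high cells and 2.64 to 3.92 CPM in Cd81-low cells, and Cdh1 was at 0 in all of them. The 7 endothelial markers summed to 4.58 to 28.5 CPM in Cd81-high cells and 8.78 to 35.2 CPM in Cd81-low cells. B and plasma-cell markers, mostly immunoglobulin RNA, summed to 49.8, 56.8 and 209.9 CPM in Cd81-high cells, against 439, 215 and 109 CPM in Cd81-low cells.

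Cells were also thinned to 1000 UMIs each, so that shares of cells with a UMI could be compared at 1 depth. Ifi207 was then found in 5.34%, 10.9% and 4.43% of Cd81-high cells, against 0.333%, 0.725% and 0.296% of Cd81-low cells. Before thinning these shares were 22.3%, 35.3% and 23.7% of Cd81-high cells, against 1.91%, 3.04% and 0.917% of Cd81-low cells. Smooth muscle of whole mesenchyme, a background type, had it in 0 of 160 thinned cells (exact binomial upper bound 2.28%). Ifi204 was found in 13.2%, 12.4% and 9.53% of Cd81-high cells, against 1.75%, 1.81% and 2.43% of Cd81-low cells after thinning. The thinned shares of Ifi205 and Ifi211 were also higher in Cd81-high cells in each library. Ifi203 was found in 15.1%, 14.6% and 13.5% of Cd81-high cells, against 7.90%, 6.45% and 14.8% of Cd81-low cells. In whole mesenchyme its share thus ran the other way. Mndal was found in 9.16%, 9.10% and 8.43% of Cd81-high cells, against 6.16%, 4.57% and 8.23% of Cd81-low cells. Median depths were 6765.5, 7555.5 and 6416 UMIs in Cd81-high cells and 6960, 6533 and 5493 UMIs in Cd81-low cells. Free RNA held the family too, at a summed 586, 706 and 438 CPM, more than the 248, 306 and 448 CPM of Cd81-low cells in the GFP-low libraries; its part in the Cd81-low levels was not tested.

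Fibroblasts of whole mesenchyme were set beside the other stromal cells of that library, where 1 library allows no test. Fibroblasts of both classes together had a summed family level of 499 CPM, against 787 CPM in blood endothelium, a ratio of 0.635 (95% exact interval 0.605 to 0.666 from counting error alone). Pericytes had 749.6 CPM, telocyte-like cells 468 CPM (260 CPM in the 22 such cells of GFP-low replicate 1), lymphatic endothelium 205 CPM and smooth muscle 115 CPM. The Cd81-high fibroblasts, at 818 CPM, were thus near the endothelium, and the Cd81-low fibroblasts, at 448 CPM, near the telocyte-like cells.

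The members did not share 1 order over these types. Ifi203 and Mndal were at 193 and 103 CPM in the Cd81-high fibroblasts of whole mesenchyme, against 347 and 320.3 CPM in blood endothelium. Ifi205 and Ifi211, in contrast, were at 204 and 131 CPM in the Cd81-high fibroblasts, against 27.0 and 32.1 CPM in blood endothelium. Pericytes followed the endothelial make-up, with Ifi203 at 371 CPM, Mndal at 236 CPM and Ifi205 at 24.3 CPM. Ifi204, at 127 CPM in the Cd81-high fibroblasts, was at 52.1 CPM or less in each of the other stromal types.

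**Figure D2:**
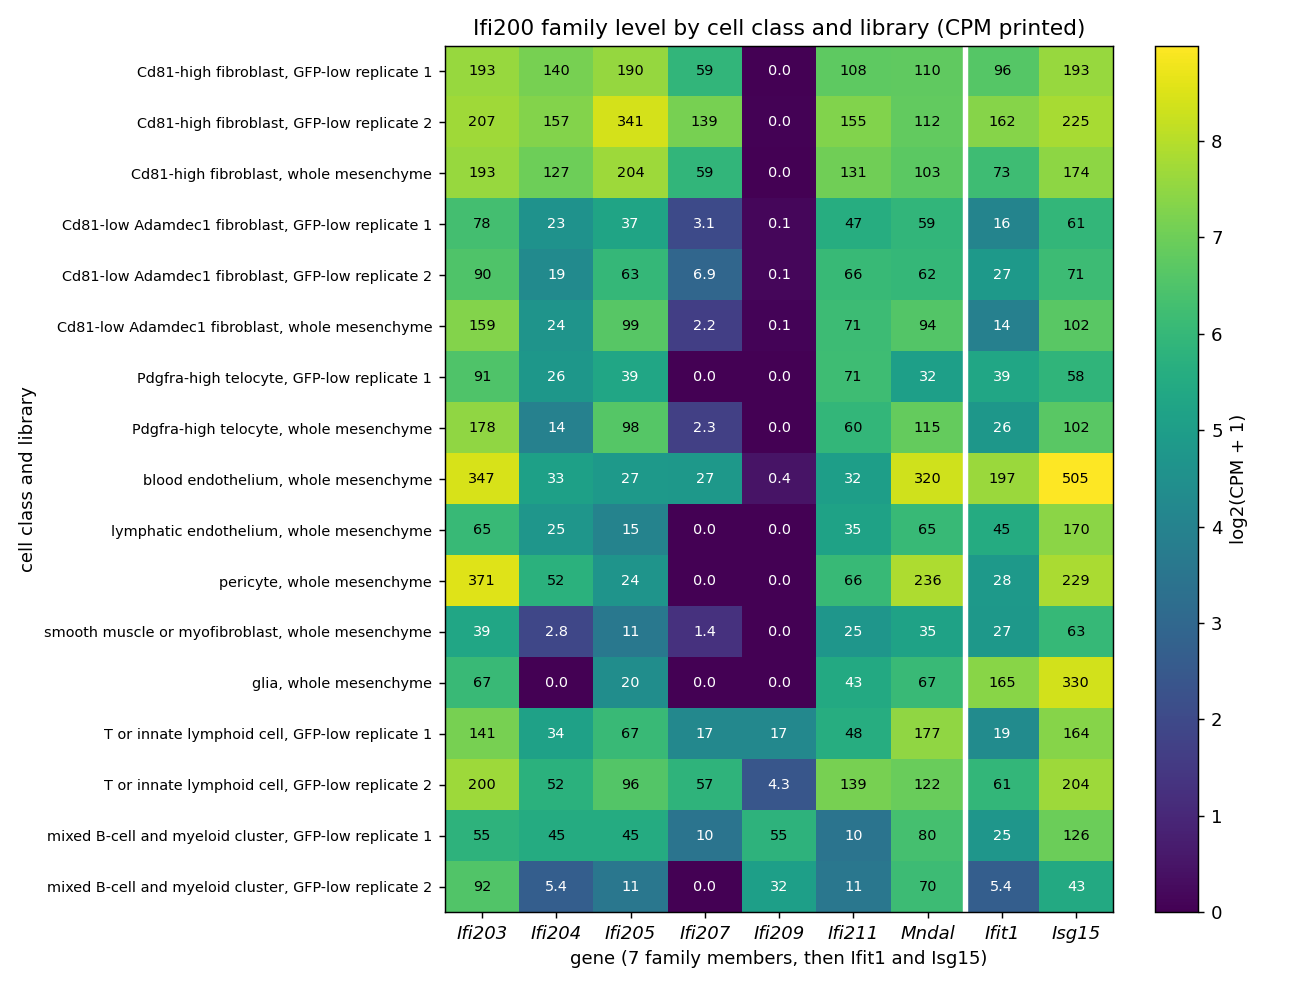
Level in CPM of each family member, Ifit1 and Isg15 in each cell class of each library. Ifi204, Ifi205, Ifi207 and Ifi211 are high in Cd81-high fibroblasts, whereas Ifi203 and Mndal are also high in blood endothelium and pericytes.

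The other family genes were nearly silent in fibroblasts. Aim2 reached at most 0.113 CPM in any fibroblast sum, against 28.5 and 26.1 CPM in T or innate lymphoid cells of the GFP-low libraries and 38.2 CPM in pericytes, the last from 11 UMIs. Ifi206 was at 1.29, 0.851 and 0.713 CPM in Cd81-high cells, against 0.245, 0.113 and 0.689 CPM in Cd81-low cells. Its log2 difference was 1.68 (SE 0.60), with an edgeR adjusted p of 0.074. Ifi213 was at 0.979 CPM or less in every fibroblast sum, against 12.7 CPM in blood endothelium, and Ifi208, Ifi214 and Ifi202b stayed at 0.258 CPM or less in every fibroblast sum.

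Within a class, cells in which a UMI of Ifit1 or Isg15 was counted also had more RNA of the family. A cell was called positive when it had at least 1 UMI of Ifit1 or Isg15 after thinning, which gave 16.4%, 19.2% and 16.4% of Cd81-high fibroblasts and 6.32%, 7.10% and 8.85% of Cd81-low fibroblasts. Smooth muscle of whole mesenchyme, with a median of 4092.5 UMIs, had 6.25% (exact binomial interval 3.04% to 11.2%), and the Cd81-low shares lie within that interval and cannot be told from this background. Isg15 was at 193, 225 and 174 CPM in Cd81-high and 60.8, 71.1 and 102 CPM in Cd81-low cells, against 229.7, 224 and 193 CPM in free RNA. Ifit1 was at 96.0, 162 and 73.1 CPM in Cd81-high and 15.7, 27.1 and 14.1 CPM in Cd81-low cells, against 50.7, 74.3 and 15.8 CPM in free RNA. A positive cell is therefore one with a counted UMI, not one shown to express either gene, and the part of free RNA was not tested. Positive and negative cells were summed by library with all their UMIs and compared with edgeR, again with the library as block and with Ifit1 and Isg15 left out. In the Cd81-high class 4.37% of 11271 genes were called higher and 1% lower, 5.38% in all, and the 6 members that passed the filter all rose in positive cells. In the Cd81-low class 0.691% of 11581 genes were called higher and 0.0432% lower, 0.734% in all, and 5 of the 6 rose. Because the members were chosen with earlier results of these data known, these fits also serve for them as a description only. Their adjusted p-values below are to be read in that way.

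Among Cd81-high fibroblasts, positive cells had Ifi203 at 370 CPM in GFP-low replicate 1, 437 CPM in GFP-low replicate 2 and 331 CPM in whole mesenchyme, against 156, 148 and 163 CPM in negative cells. The groups did not overlap, and the log2 difference was 1.43 (SE 0.07, edgeR adjusted p = 6.95e-12). Ifi207 had 108, 294 and 110.5 CPM in positive cells, against 48.7, 99.6 and 48.1 CPM in negative cells, again without overlap, although negative cells of GFP-low replicate 2 came close to the positive cells of the other libraries. Its log2 difference was 1.48 (SE 0.08). Ifi204 had 228, 275 and 253 CPM in positive cells and 122, 127 and 100.1 CPM in negative cells, a log2 difference of 1.14 (SE 0.06). Mndal had 183, 191 and 207 CPM in positive cells and 95.3, 91.3 and 81.0 CPM in negative cells, a log2 difference of 1.13 (SE 0.06). In both genes every positive sum lay above every negative one. Ifi211 had 177, 257 and 223 CPM in positive cells, against 93.4, 129 and 111 CPM in negative cells, a log2 difference of 1.05 (SE 0.06). Ifi205 had 299, 514 and 303 CPM in positive cells, against 167, 297 and 182 CPM in negative cells, a log2 difference of 0.88 (SE 0.05). Of these, the Ifi205 groups nearly touched and the Ifi211 groups did not overlap. The share of all genes that separate in this way was not counted, here or for the Cd81-low fibroblasts below. Adjusted p-values of the 6 lay at or below the 1.09e-10 of Ifi205. Ifi209 had 0 UMIs in the positive and 1 in the negative cells of all libraries together.

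Among Cd81-low fibroblasts the changes were smaller. Ifi204 had 42.8, 56.5 and 33.7 CPM in positive cells, against 21.6, 15.8 and 23.0 CPM in negative cells, a log2 difference of 1.03 (SE 0.19, edgeR adjusted p = 0.00329). Ifi211 had 75.2, 123 and 94.9 CPM in positive cells, against 44.8, 61.0 and 68.0 CPM in negative cells, a difference of 0.72 (SE 0.12, adjusted p = 6.33e-04 by edgeR). In both genes every positive sum lay above every negative one. Ifi205 had 66.7, 103 and 129 CPM in positive cells, against 34.9, 59.8 and 95.6 CPM in negative cells, a difference of 0.63 (SE 0.11, adjusted p = 0.0016 by edgeR). With another random thinning draw this call was lost (0.31, adjusted p = 0.348 by edgeR). Ifi203 had 97.5, 168 and 211 CPM in positive cells, against 76.4, 83.3 and 153 CPM in negative cells, a difference of 0.62 (SE 0.10, adjusted p = 0.00102 by edgeR), which was 0.39 with the other draw (adjusted p = 0.0166 by edgeR). Mndal had 75.2, 113 and 122 CPM in positive cells, against 58.1, 57.6 and 91.1 CPM in negative cells, a difference of 0.59 (SE 0.11, adjusted p = 0.00414 by edgeR), and the call was lost with status by Ifit1 alone (0.52, adjusted p = 0.842 by edgeR). Under that rule GFP-low replicate 1 had too few positive cells for a sum. GFP-low replicate 2 and whole mesenchyme had 33 and 44 positive cells. In these 3 genes positive cells were higher in each library, but whole-mesenchyme negative cells exceeded the positive cells of GFP-low replicate 1.

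Ifi207, the member with the largest difference between the classes, was not called here: it had 0, 7 and 5 UMIs in positive and 25, 54 and 33 UMIs in negative Cd81-low cells. Its log2 difference was 0.30 (SE 0.52), with an edgeR adjusted p of 0.965, and no change was detectable at this depth. The estimate was unstable: over the alternatives it ran from −0.11 without GFP-low replicate 2 to 1.48 (SE 0.47, edgeR adjusted p = 0.282) with another random choice of clustering genes, and it was never called. Whether the members' differences were themselves unequal between the classes was not tested.

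**Figure D3:**
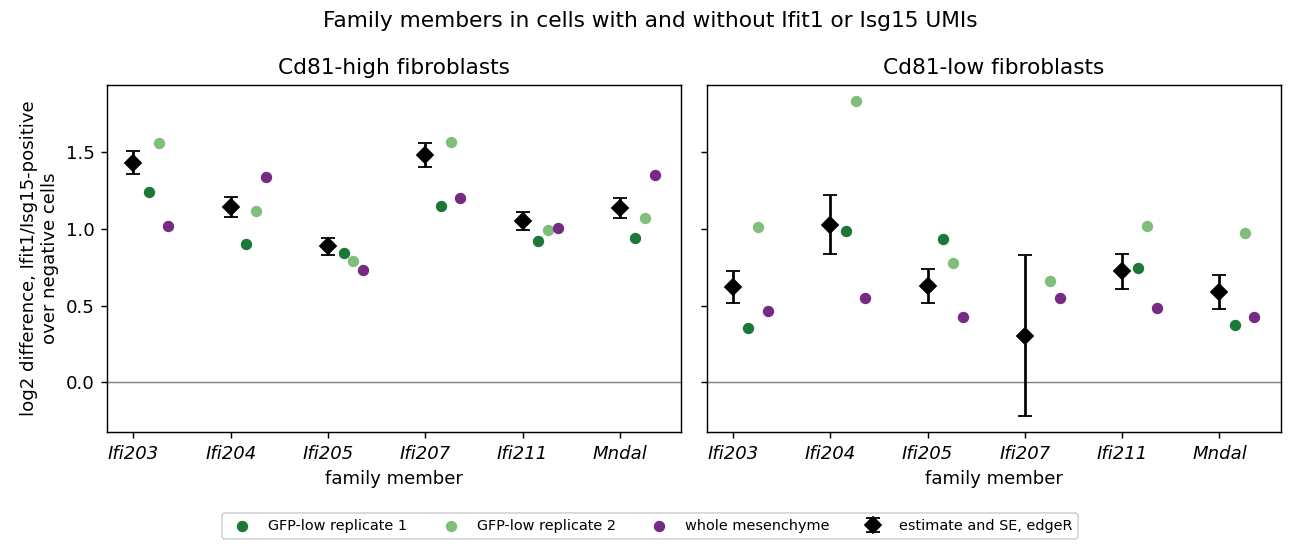
Log2 difference of each member between Ifit1/Isg15-positive and negative cells, in Cd81-high and Cd81-low fibroblasts, with standard errors from edgeR. The 6 tested members lie between 0.88 and 1.48 in Cd81-high cells and between 0.30 and 1.03 in Cd81-low cells.

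These calls depended on the block for library. Without it edgeR called 3 genes higher and 0 lower in the Cd81-high class, with 203 genes at an unadjusted p under 0.05. In the Cd81-low class it called 0 in either direction, with 132 genes at an unadjusted p under 0.05, so that no member was called in either class. The members' log2 differences stayed about as large without the block, such as 0.88 for Ifi205 and 1.38 for Ifi203 in the Cd81-high class and 1.14 for Ifi204 and 0.79 for Ifi211 in the Cd81-low class. DESeq2 with the block called 245 and 19 in the Cd81-high class and 38 and 1 in the Cd81-low class. Positive cells were not evenly spread over clusters either, so the values were also read within clusters, a step added after the results had been seen. In the Cd81-high class 7 pairs of cluster and library had at least 20 cells on each side, and in 7 of 7 the positive cells were higher for each of the 6 detected members, with median log2 differences from 0.54 for Ifi205 to 1.01 for Ifi203. In the Cd81-low class the positive cells were higher in 7 of 7 pairs for Ifi205 and Ifi211, in 6 of 7 for Ifi203, Ifi204 and Mndal, and in 3 of 7 for Ifi207. Several pairs come from the same library, so they are not separate repeats. The share of all genes with such counts was not computed.

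Between clusters the likeness was looser, and for the summed family it was stronger among the Cd81-high ones. Over the 15 sums of Cd81-high clusters by library, the summed family level had a Pearson r of 0.72 with Ifit1 and 0.74 with Isg15 on the scale log2(CPM + 1), used for every r given here. Over the 11 Cd81-low sums r was −0.00 with Ifit1 and 0.48 with Isg15. Single members differed there: with Isg15, r was 0.70 for Ifi205, 0.66 for Ifi211 and 0.56 for Ifi204. Over the Cd81-high sums these were 0.60, 0.64 and 0.47. For Ifi203, Mndal and Ifi207, r with Isg15 was 0.37, 0.21 and 0.05 over the Cd81-low sums, against 0.83, 0.72 and 0.64. These are descriptions of sums that share libraries and free RNA. Cluster 14, a Cd81-high cluster mostly of GFP-low replicate 2, had the highest family level there, 1387 CPM, with Ifit1 at 252 CPM, Isg15 at 331 CPM and Ifi207 at 188 CPM. The 98 cells of that cluster in whole mesenchyme had 815 CPM for the family, with Ifit1 at 29.9 CPM. Cluster 8 had a family level of 987 CPM beside 76.6 CPM of Ifit1 and 123 CPM of Isg15 in GFP-low replicate 2, where clusters 2, 3 and 7 had 21.6 to 31.4 CPM of Ifit1 and 14.5 to 72.0 CPM of Isg15. The 52 cells of cluster 8 in whole mesenchyme had 1077 CPM of the family beside 22.0 CPM of Ifit1 and 112 CPM of Isg15.

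The members also differed in which of them ran together over all 26 fibroblast sums. Ifi205 had an r of 0.89 with Ifi211, 0.88 with Ifi204 and 0.85 with Ifi207. Ifi203 had an r of 0.82 with Mndal but only 0.17 with Ifi207. Ifi207 and Ifi211, alike at 85.9% of promoter positions, had an r of 0.76. Their differences between the fibroblast classes were nonetheless unequal, at 4.54 and 1.20 on the log2 scale.

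**Figure D4:**
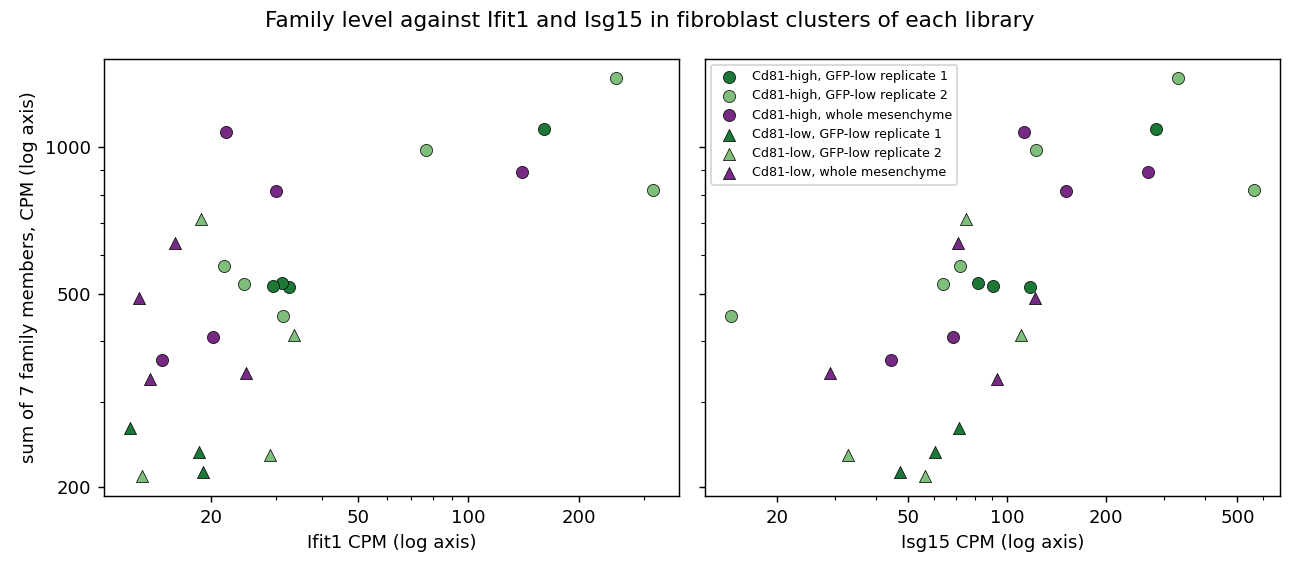
Summed family level against Ifit1 and against Isg15, in CPM, with 1 point per fibroblast cluster and library, by class. In the Cd81-high class the family level goes with both genes (r of 0.72 and 0.74 over 15 points). The Cd81-low points show r of −0.00 with Ifit1 and 0.48 with Isg15.

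Across cell types the family and the yardstick genes parted in places. Glia of whole mesenchyme had Ifit1 at 165 CPM and Isg15 at 329.7 CPM beside a family level of 197 CPM, although this cluster is shallow and mixed. Pericytes had 27.8 CPM of Ifit1 beside 749.6 CPM of the family, and blood endothelium had 197 CPM of Ifit1 and 505 CPM of Isg15 beside 787 CPM. Ranked over 17 sums of class by library, which share 3 libraries and their free RNA, Isg15 was 91st of 10456 genes in likeness to the family sum (r = 0.59) and Ifit1 376th (r = 0.45). The 5 most alike were Fosl1, a subunit of the transcription factor AP-1 (r = 0.82), Irak3, a brake on Toll-like receptor signalling (r = 0.81), the growth factor Fgf1 (r = 0.81), the chemokine scavenger Ackr1 (r = 0.75) and the kinase Jak1 (r = 0.74).

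Lists of interferon-stimulated genes and of the sensing pathway were set beside the members. Of 38 tested antiviral genes, 22 were higher and 0 lower in Cd81-high than in Cd81-low fibroblasts, with a median log2 difference of 0.49 against −0.01 over all tested genes. The largest differences called were those of Rsad2 (viperin, 3.13, SE 0.19), Ifit1 (2.61, SE 0.11) and Ifit3 (2.30, SE 0.17). Isg15 differed by 1.45 (SE 0.20). Of 16 interferon-inducible GTPases, which act on the membranes of intracellular pathogens, 11 were higher and 0 lower, with a median of 0.56, led by Gbp10 (1.36), Gbp2 (1.17) and Irgm1 (1.08). Ifit1 and Isg15 belong to the antiviral list and were part of the reason for choosing the genes.

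Of 12 tested genes of cytosolic DNA sensing, 1 was higher, the nucleic-acid sensor Zbp1 (1.20, SE 0.12), a share of calls near that of all genes. Lower in Cd81-high cells were 2, Tmem173, which encodes STING (−0.61, SE 0.13, edgeR adjusted p = 0.0082), and Hmgb1, a chromatin protein (−0.33, SE 0.10). Of 7 inflammasome genes none was higher and 3 were lower: the cytokine Il1b (−4.84), the adaptor Pycard (−0.92, SE 0.11) and the protease Casp8 (−0.36). Il1b and Pycard are also genes of myeloid cells, whose 6 markers were higher in the Cd81-low sums as given above, and the part of such cells was not tested. Of 18 genes of interferon receptors and signalling, 4 were higher and 4 lower, with the transcription factors Irf7 (0.68) and Irf1 (0.62) among the higher and Irf8 (−0.82) among the lower. The 8 interferon genes themselves had too few UMIs to be tested in any comparison.

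With Ifit1/Isg15 status, the antiviral genes rose broadly. In Cd81-high cells 31 of 34 tested rose and 0 fell (median 0.96), with Rsad2 (3.85), the antiviral Oasl1 (3.72) and Mx1 (3.38) in front; 15 of 16 GTPases rose (median 0.87), led by Gbp5 (1.27), Irgm1 (1.14) and Gbp2 (1.12). In DNA sensing 4 of 12 rose, with Mb21d1, which encodes the sensor cGAS, at 1.11 (SE 0.13), Samhd1, which degrades nucleotides, at 0.75 and Zbp1 at 0.74. In interferon signalling 11 of 18 rose, with the feedback inhibitors Usp18 (1.31) and Socs1 (1.00) and Irf7 (1.14) at the top, and of 6 inflammasome genes 1 did, the protease Casp4 (0.68).

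In Cd81-low cells 15 of 32 antiviral genes rose (median 0.64), with Rsad2 (2.33), Mx1 (2.31) and Ifit3 (2.20) in front, and 11 of 16 GTPases (median 0.60), led by Gbp4 (0.92), Gbp6 (0.76) and Ifi47 (0.71). There, 1 of 12 DNA-sensing genes rose, Zbp1 (0.63), and 4 of 18 signalling genes, among them Usp18 (1.67), Socs1 (0.47) and Irf1 (0.40); 0 of 7 inflammasome genes were called. The members' medians, 1.14 for the Cd81-high class and 0.63 for the Cd81-low class, lay near those of the antiviral list, while the medians over all tested genes were −0.01 and −0.00.

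In Cd81-high cells positive for Ifit1 or Isg15, the other family genes that passed the filter, Ifi206 and Ifi213, rose as well. Aim2, Ifi208, Ifi214 and Ifi202b were not tested there. Ifi206 rose by 1.91 (SE 0.43, edgeR adjusted p = 0.00583) and Ifi213 by 2.05 (SE 0.50, adjusted p = 0.0133 by edgeR). Both were rare: no sum held more than 3.93 CPM of either gene, on TMM-normalised library sizes. The Cd81-high cells of whole mesenchyme held 2 UMIs of each.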

How the data were processed

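Single-cell RNA of 3 colon libraries was used; the bulk RNA and chromatin samples were not used here. The deposited values are UMI counts per gene and barcode in raw 10x matrices; Cell Ranger 3.0.2 and mm10 are named in the submitters' processing notes. From these, cells were filtered as the report states, clustered with Leiden (leidenalg 0.10.2, resolution 1, 30 principal components not batch-corrected) on 15338 genes and named from fixed markers. No doublet caller was run; as an alternative, the deepest 6% of cells were dropped. UMIs were summed by library and class and tested with edgeR 4.0.16 (R 4.3.3) with filterByExpr, TMM and Benjamini-Hochberg adjustment over all genes tested at 0.05. The test was checked on simulated data. The library was the block, because both classes and both statuses come from the same library. DESeq2 1.42.0 was an alternative. With this block the p-values measure how evenly the difference within a library recurs over the 3 libraries, not the spread of levels between libraries. As the labels name no separate mice, this spread may be technical, and the p-values cannot be read as holding across mice. Intervals are 95% and cover counting error only.

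The members, lists and tests were chosen with earlier results of these data known. Named were the members, the other family genes, Ifit1, Isg15, up to 3 genes per list with the largest log2 difference past the threshold, and the 5 genes most alike; Ifi202b was added after its row was found, and genes named with the libraries or clusters were added afterwards too. The genes offered to the clustering were left out of the class comparison. Alternatives covered tool, filter, block, cell limits, clustering, status rule and left-out libraries; the class-by-library-group interaction and the values within clusters were chosen after seeing the data.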

Additional observations from a re-analysis of the deposited data

Results flagged for a closer look

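The difference between Cd81-high and Cd81-low fibroblasts was smaller in the 1 whole-mesenchyme library than in the 2 GFP-low libraries for Ifi203, Ifi205 and Mndal. The difference itself was put to a test on a pattern already seen, an interaction of class with library group in edgeR, added after the levels had been seen; it called 59 of 6722 genes (0.878%). The interaction was −1.11 on the log2 scale for Ifi203 (SE 0.16, edgeR adjusted p = 0.0152), −1.49 for Ifi205 (SE 0.16, edgeR adjusted p = 0.00751) and −0.87 for Mndal (SE 0.16, edgeR adjusted p = 0.0393). For Isg15 it was −1.04 (SE 0.16, edgeR adjusted p = 0.0218). Ifi205 stood apart by library group only in Cd81-low cells, at 98.7 CPM in whole mesenchyme, against 37.2 and 63.0 CPM in the GFP-low replicates. In Cd81-high cells whole mesenchyme had 204 CPM, between the 189.5 and 341 CPM of the GFP-low replicates.

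Whole mesenchyme is 1 library, so it is assumed to vary as the 2 GFP-low libraries do, and the p-values cannot stand for the kind of library; genotype and sort cannot be told apart. With clustering at resolution 2 the call was lost for Ifi203 (−0.76) and Mndal (−0.64), and with thinned sums for Mndal (−0.90). With fibroblasts divided by a Cd81 UMI it was lost for Ifi203 (−0.10) and Mndal (−0.31), and Ifi205 turned to 0.45 (edgeR adjusted p = 0.0189). As given above, that division put many cells of the Cd81-high class on its low side. Isg15 lost its call under all 3 of these settings (edgeR adjusted p from 0.0968 to 0.262). Cluster 13, shallow and with 767 of its 820 cells in whole mesenchyme, had Ifi203 at 317 CPM, and its part in the result was not tested. In cluster 1, which all libraries share, Ifi203 was at 136 CPM in whole mesenchyme, against 58.7 and 66.2 CPM in the GFP-low replicates.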

How the results depend on the processing

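Member values kept their direction and their side of the threshold in 62 of 72 cases (12 alternatives) between the classes, in 78 of 84 (14 alternatives) for status in Cd81-high cells and in 75 of 83 for status in Cd81-low cells. Exceptions in direction were Ifi203 and Mndal between classes divided by a Cd81 UMI (−0.013 and −0.015), Ifi207 with status in Cd81-low cells without GFP-low replicate 2 (−0.11, with 0.66 as the highest when 1 library was left out), and the interaction of Ifi205 under the Cd81 division (0.45). Ifi205 and Mndal lost their calls with status in Cd81-low cells under another thinning draw (0.31 for Ifi205) and Ifit1 alone (0.52 for Mndal). DESeq2 gave Ifi207 no adjusted p there. The cause of these losses was not tested.

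Between the classes, genes higher and lower numbered 866 and 945; they were 100 and 309 with the Cd81 division and 449 and 442 with thinned sums, which hold fewer UMIs. With status in Cd81-high cells (493 and 113), DESeq2 called 245 and 19, and status by any UMI 234 lower. With status in Cd81-low cells (80 and 5), DESeq2 called 38 and 1, Ifit1 alone 29 higher, any UMI 161 and 32, no filter 11 lower and removal of the deepest cells 12 lower. Leaving out 1 library in turn gave 575 to 1087 higher and 645 to 1015 lower between classes, 278 to 604 and 46 to 175 with status in the Cd81-high class, and 48 to 105 and 2 to 10 in the Cd81-low class.

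The replicate block is the library, shared by both sides of each comparison. Without the block the counts were 380 higher and 459 lower between classes, 3 and 0 with status in the Cd81-high class, and 0 and 0 in the Cd81-low class; no member kept a call with status in either class, and Ifi203 and Mndal lost theirs between classes. The ratio of fibroblasts to endothelium stayed between 0.629 and 0.661. Depth limits Ifi209 and Ifi207 in Cd81-low cells.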

Other observations

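T or innate lymphoid cells of the GFP-low libraries, the cells with the most Aim2 beside pericytes, also held other members: Ifi203 was at 141 and 199.9 CPM and Mndal at 177 and 122 CPM in GFP-low replicates 1 and 2. Ifi208 in blood endothelium stood at 2.70 CPM. These sums rest on 81 and 35 lymphoid cells.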
